A study of Mus musculus with 6 samples.

Results

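The 7 genes described here belong to the mouse Ifi200 family and were followed in endometriosis-like lesions: *Aim2*, *Pyhin1*, *Ifi204*, *Mnda*, *Ifi203*, *Ifi202b* and *Ifi205*. They were taken by symbol from the 41786 gene symbols counted, all 7 were present, and all 7 passed the filter on low counts. They were chosen by family membership with their read counts in niclosamide against vehicle lesions already known. The values of that contrast are therefore given as a description. No p is given for a single member, and where members past a threshold are counted beside all genes, the count supports nothing.

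The Ifi200 genes encode proteins with a HIN domain, which binds DNA, usually joined to a pyrin domain, which recruits partner proteins. Many of them are induced by interferons and act in macrophages and lymphocytes. AIM2 binds double-stranded DNA in the cytosol and assembles an inflammasome with the adaptor ASC and caspase-1, which matures IL-1beta and IL-18. p204, the product of *Ifi204*, has been studied as a sensor of foreign DNA that acts upstream of STING, and p202, the product of *Ifi202b*, lacks a pyrin domain and restrains AIM2. *Ifi202b* is also a candidate gene of lupus susceptibility in mice and is known for low expression in C57BL/6 compared with lupus-prone strains.

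The lesions were grown in female C57BL/6 mice by suturing donor uterus (B6-GFP Positive, 6 weeks of age) onto the inner body wall of wild-type recipients aged 8 weeks and at the same stage of the estrous cycle. After 3 days, recipients were given niclosamide daily at 200 mg/kg body weight by mouth for 3 weeks, or vehicle, and tissue was taken in diestrus. There were 3 niclosamide libraries, each from 1 mouse, and 3 vehicle libraries, of which vehicle 1 was RNA pooled over 4 mice. The counts do not tell donor from host cells, so a transcript may come from either, and in bulk tissue fewer cells of a type and less RNA per cell cannot be told apart. Stranded RNA-seq gave 31050619 to 33606591 counted reads in niclosamide libraries and 27797121 to 34797000 in vehicle libraries. Members took 0.056%, 0.0643% and 0.0488% of the counts in niclosamide 1 to 3, against 0.0315%, 0.0463% and 0.0399% in vehicle 1 to 3. All 10 uterine epithelial and all 12 stromal markers had counts in all 6 libraries.

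The 7 genes lie within 682.5 kb of mouse chromosome 1 (GRCm38.p3, 173349246 to 174031755), with *Aim2* at one end and *Ifi205* at the other. *Aim2* (173349246 to 173466040) and *Pyhin1* (173630859 to 173647928) are on the plus strand. *Ifi204* (173747293 to 173767068), *Mnda* (173896341 to 173913046), *Ifi203* (173920400 to 173942847), *Ifi202b* (173962569 to 173982844) and *Ifi205* (174011998 to 174031755) are on the minus strand. RefSeq of GRCm38.p6 lists *Pyhin1* as Ifi209 and *Mnda* as Ifi211, so the symbol *Mnda* here is a mouse paralog and its values say nothing of human MNDA. Another 7 genes of the family sit between them: *LOC102639543* (Ifi206 in RefSeq), *BC094916*, *Pydc4* (Ifi213), *Pydc3* (Ifi208), *AI607873* (Ifi207), *Mndal* and *Gm16340*, an Ifi203 pseudogene.

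Promoter sequence is shown because induction by interferon is the feature the family is best known for. Windows of 300 bases, 250 before and 50 after the start site, were taken from RefSeq (GRCm38.p6) for 6 of the 7 members, all except *Ifi204*. They were searched on both strands for the interferon-stimulated response element core (GAAA, 2 bases of any kind, GAAA) and for the gamma-activated sequence TTCNNNGAA. The letters of the core can overlap other purine-rich motifs. The core was found in *Ifi205*, *Mnda* and *Ifi203*, 3 of the 6 members, and in all 5 other family genes that had a window. Of 27025 genes with such windows, 3.99% held it in any window, and of all 32851 windows 3.44% did. The matches are letters in a window, not measured binding sites. The stretches around the core are shown to compare the genes, with the core in capitals.
*Ifi205* (chr1:174031868-174031901, minus strand): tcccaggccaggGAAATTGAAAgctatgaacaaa
*Mnda* (chr1:173913062-173913095, minus strand): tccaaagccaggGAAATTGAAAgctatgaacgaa
*Ifi203* (chr1:173942506-173942539, minus strand): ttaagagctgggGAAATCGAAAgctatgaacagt
*Mndal* (chr1:173880202-173880235, minus strand): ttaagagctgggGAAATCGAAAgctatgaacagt
*AI607873* (chr1:173741829-173741862, minus strand): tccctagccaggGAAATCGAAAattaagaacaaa
*Pydc3* (chr1:173673595-173673628, plus strand): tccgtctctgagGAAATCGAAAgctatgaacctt

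*Ifi205* and *Mnda* carried the core as GAAATTGAAA, and *Ifi203* and the other family genes shown as GAAATCGAAA. The 34-base stretches of *Ifi203* and *Mndal* were the same letter for letter. Counted from the start site, the core began at base -37 in *Mnda* and at -35 in the second of the *Ifi203* windows, the first holding none. In *Ifi205* it began at -134, and a match on the opposite strand began at base 24 of the transcript. No core was found in the windows of *Aim2*, *Pyhin1* and *Ifi202b*, where the best stretch matched 7 of the 8 fixed letters. The *Aim2* window (173420354 to 173420653) lies inside the gene as counted here, which begins at 173349246. Sequence at that upstream end was not searched. *Ifi202b* had the gamma-activated sequence at base -148, a motif held by 8.3% of all windows and by no other member's window. Counted by gene, 9.55% of genes held it in any window. The windows of *Ifi205* and *Ifi202b* are given whole for contrast, with the response element core in capitals, of which *Ifi202b* has none.
*Ifi205* (chr1:174031706-174032005, minus strand): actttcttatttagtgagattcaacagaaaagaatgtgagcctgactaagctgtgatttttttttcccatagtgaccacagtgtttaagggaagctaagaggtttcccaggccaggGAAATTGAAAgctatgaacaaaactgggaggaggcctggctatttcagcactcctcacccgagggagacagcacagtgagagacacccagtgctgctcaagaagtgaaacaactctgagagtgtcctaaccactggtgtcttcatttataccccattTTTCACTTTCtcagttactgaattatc
*Ifi202b* (chr1:173982795-173983094, minus strand): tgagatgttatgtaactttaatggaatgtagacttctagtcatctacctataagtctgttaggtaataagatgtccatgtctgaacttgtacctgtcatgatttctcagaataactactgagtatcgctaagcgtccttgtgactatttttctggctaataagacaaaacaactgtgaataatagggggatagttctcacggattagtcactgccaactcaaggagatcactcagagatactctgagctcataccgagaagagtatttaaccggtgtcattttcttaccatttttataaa

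**Figure D1:**
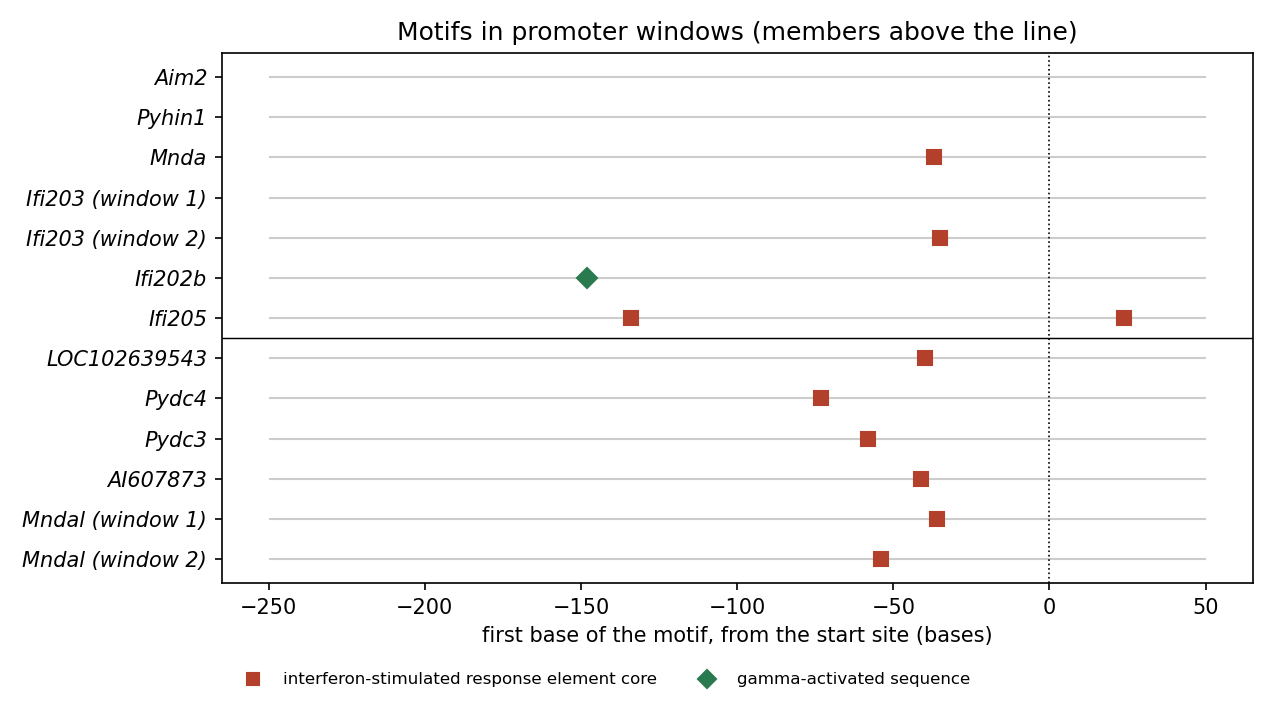
Positions of the response element core (squares) and the gamma-activated sequence (diamond) in each RefSeq promoter window, in bases from the start site (x axis), one line per window. The core begins between -41 and -35 in *Mnda*, *AI607873*, *LOC102639543* and a window each of *Ifi203* and *Mndal*, and at -134 in *Ifi205*.

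*Ifi205*, first known as an interferon- and lipopolysaccharide-induced macrophage gene, had the narrowest spread relative to its difference. It had 62.6, 72.5 and 53.0 CPM (counts relative to the TMM-scaled library size) in niclosamide 1 to 3, against 34.4, 34.5 and 30.5 CPM in vehicle 1 to 3. All niclosamide lesions lay above all vehicle lesions, and the vehicle lesions lay close together. The fitted log2 fold change (niclosamide over vehicle) was 0.92 ± 0.15 (SE, n = 3 each).

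*Pyhin1* had 85.5, 83.1 and 64.5 CPM in niclosamide 1 to 3, against 36.4, 55.3 and 54.3 CPM in vehicle 1 to 3. The groups were apart here too, and vehicle 1 was the lowest library. Its log2 fold change was 0.68 ± 0.20. *Ifi203* had 199.9, 175.1 and 187.3 CPM in niclosamide 1 to 3, against 89.5, 173.3 and 146.4 CPM in vehicle 1 to 3. The groups were apart by a small margin, since vehicle 2 reached almost the level of niclosamide 2, and the vehicle spread came mainly from the pooled vehicle 1. The log2 fold change of *Ifi203* was 0.46 ± 0.25, and 0.23 without vehicle 1.

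*Aim2*, the inflammasome sensor, had 57.9, 48.2 and 34.9 CPM in niclosamide 1 to 3, against 24.8, 37.5 and 30.9 CPM in vehicle 1 to 3. Niclosamide 3 fell within the vehicle range, so the groups overlapped, and the log2 fold change was 0.60 ± 0.24. *Ifi204*, the gene of the p204 DNA sensor, had 142.1, 187.7 and 100.6 CPM in niclosamide 1 to 3, against 97.9, 104.0 and 99.8 CPM in vehicle 1 to 3. Vehicle lesions were nearly equal, whereas niclosamide 3 was at their level and niclosamide 2 was 1.87 times as high as niclosamide 3. The log2 fold change of *Ifi204* was 0.51 ± 0.23. *Mnda* had 43.8, 51.6 and 30.6 CPM in niclosamide 1 to 3, against 27.4, 35.4 and 26.2 CPM in vehicle 1 to 3, with niclosamide 3 again inside the vehicle range (log2 fold change 0.50 ± 0.23).

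**Figure D2:**
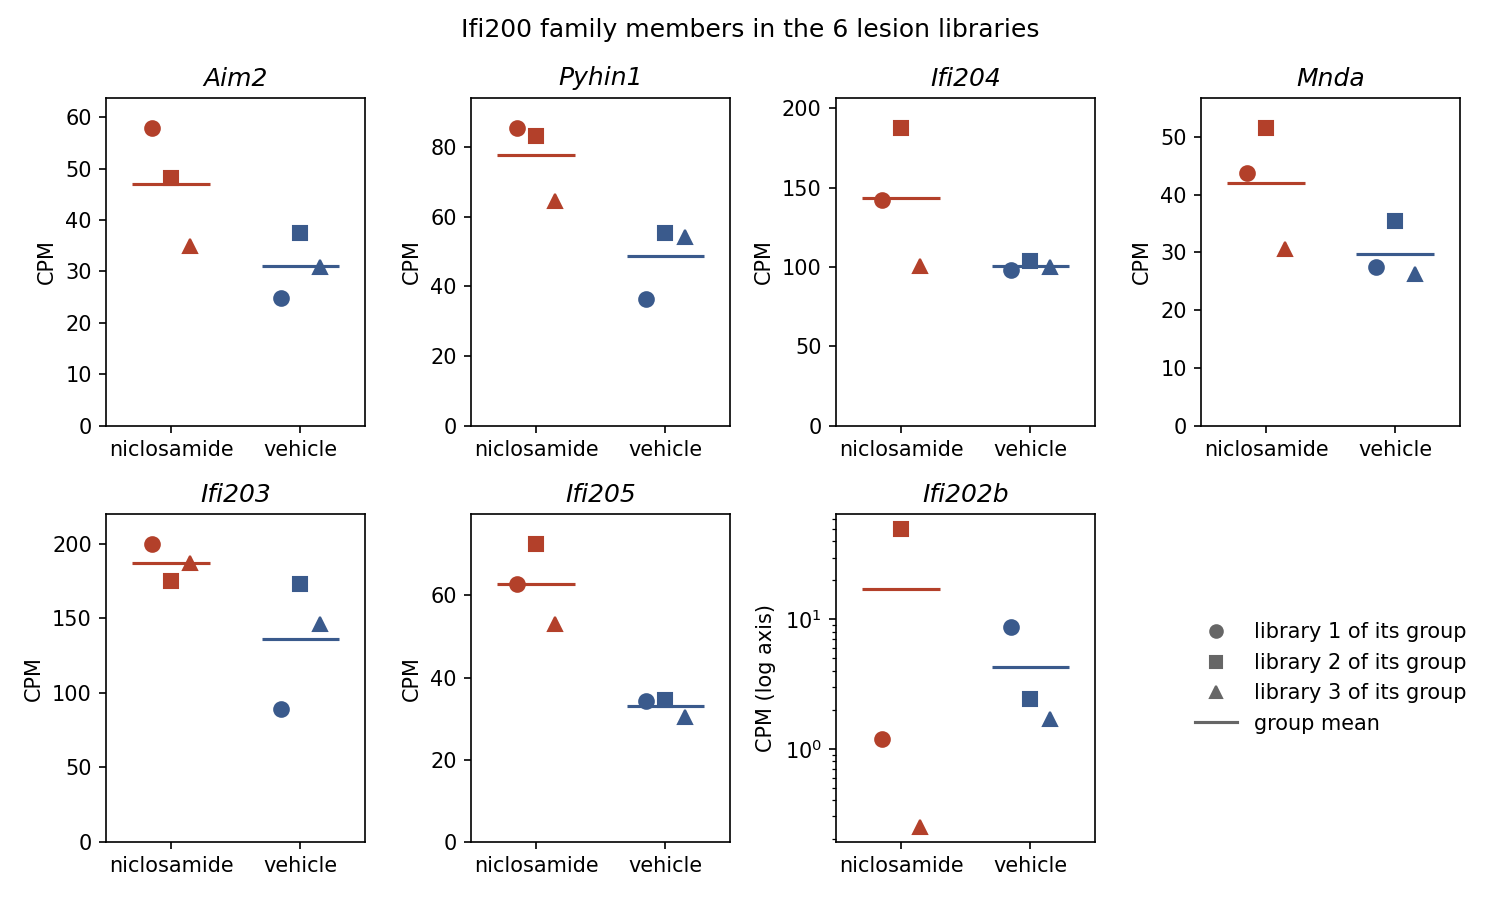
CPM of each member (y axis, log scale for *Ifi202b* only) in the 3 niclosamide and 3 vehicle libraries, one symbol per library and a line at the group mean. *Ifi205*, *Pyhin1* and *Ifi203* have all niclosamide values above all vehicle values, and *Ifi202b* spans 0.249 to 49.7 CPM within the niclosamide group.

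Leaving out niclosamide 3 parted the groups in *Aim2*, *Ifi204* and *Mnda* as well, and so did leaving out vehicle 2. With all libraries, 3 of the 7 members were apart with niclosamide higher and 0 with niclosamide lower, where 5.9% and 6.37% of all 17364 genes tested were. All 7 had a log2 fold change above 0, as 53.7% of all genes did, with a median of 0.60 beside 0.02 over all genes. In edgeR's quasi-likelihood fit with Benjamini-Hochberg adjustment over all genes, 0 of the 7 passed an adjusted p of 0.05, as did 0% of all genes. At an unadjusted p under 0.05 there were 3 members (*Ifi205*, *Pyhin1* and *Aim2*), all higher. Of all genes, 3.37% were higher and 3.55% lower at that level, 6.92% in all. DESeq2 called 1 member, *Ifi205*, where 0.527% of all genes with an adjusted p were called higher and 0.696% lower. Because the family was chosen with this contrast known, nothing is read from these counts.

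*Ifi202b*, the pyrin-less inhibitor of AIM2, went its own way. It had 35, 1608 and 8 counts in niclosamide 1 to 3, against 240, 89 and 54 counts in vehicle 1 to 3. On the CPM scale that was 1.19, 49.7 and 0.249 with niclosamide, against 8.75, 2.44 and 1.70 with vehicle. Niclosamide 2 held the highest and niclosamide 3 the lowest value of the 6, a ratio of 199.7 within one treatment group, while the other 6 members differed by no more than 1.87 times within the niclosamide group. The fitted log2 fold change of 1.99 ± 1.73 rested on niclosamide 2. Without that library the fit gave -2.60, and both remaining niclosamide libraries lay below all 3 vehicle libraries (mean 0.719 CPM with niclosamide, against 4.30 CPM with vehicle). *Ifi202b* made up 7.44% of the members' counts in niclosamide 2 and 0.0528% in niclosamide 3, against 0.436% to 2.74% in vehicle lesions.

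The pair of libraries highest in *Ifi202b* was also the pair with the highest summed epithelial and mesothelial markers. The 10 uterine epithelial markers summed to 645, 5166 and 1577 CPM in niclosamide 1 to 3, against 6225, 2935 and 3929 CPM in vehicle 1 to 3. The 8 mesothelial markers, all with counts in all libraries, summed to 191, 545 and 171 CPM with niclosamide, against 581, 230.8 and 226.4 CPM with vehicle. That pair was niclosamide 2 and vehicle 1 in both lists, although vehicle 1 had far less *Ifi202b* than niclosamide 2. Outside the pair, mesothelial sums ran in the order of *Ifi202b* and epithelial sums did not. Niclosamide 1 had the lowest epithelial sum but more *Ifi202b* (1.19 CPM) than niclosamide 3 (0.249 CPM). Vehicle 3 had the higher epithelial sum but less *Ifi202b* (1.70 CPM) than vehicle 2 (2.44 CPM). Both lists hold *Krt19*, so their sums are not independent. Skeletal muscle markers showed the reverse in niclosamide 2, with 31070, 709 and 10260 CPM with niclosamide, against 3979, 9975 and 10400 CPM with vehicle. These lists were picked from a longer set with the values known, and their part in the *Ifi202b* values was not tested.

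**Figure D3:**
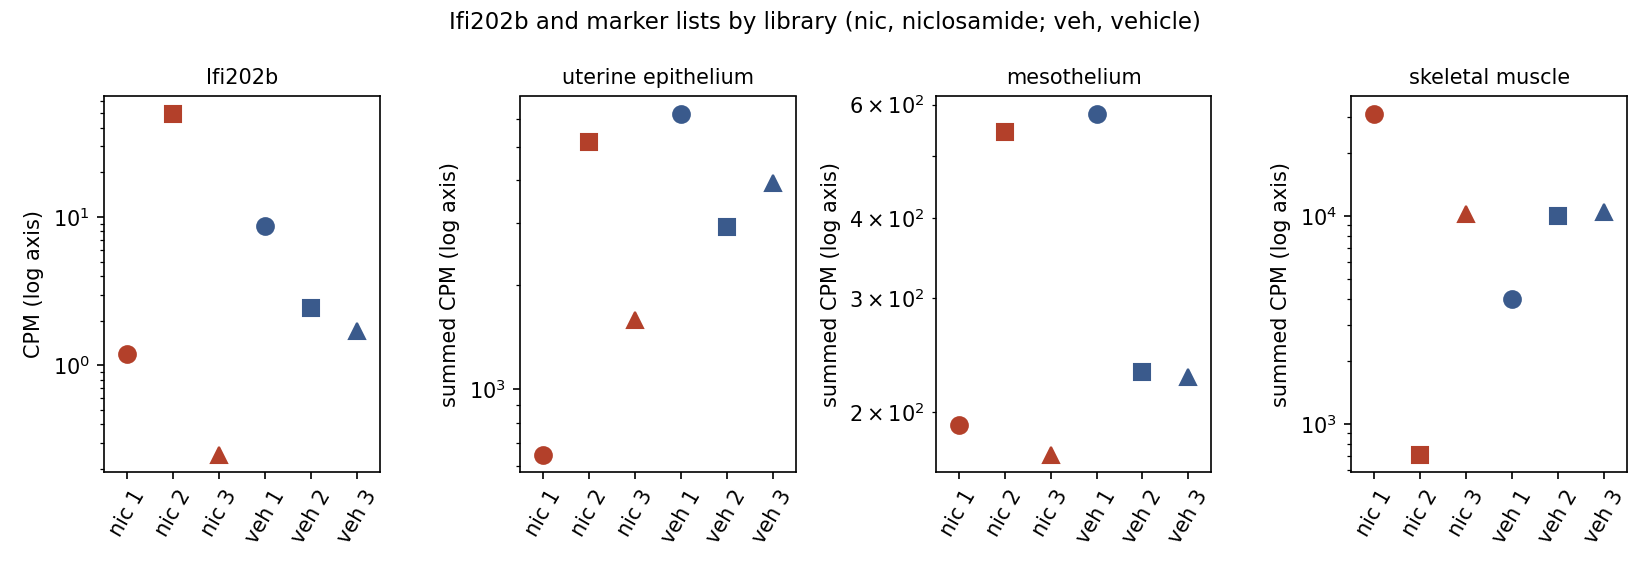
*Ifi202b* in CPM and the summed CPM of 3 marker lists (log axes) in each library, niclosamide left of vehicle. The lists were picked from a longer set with the values known. *Ifi202b*, uterine epithelium and mesothelium are all high in niclosamide 2 and vehicle 1, and skeletal muscle is lowest in niclosamide 2.

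Per length, *Ifi204* was the most abundant member. In RPKM (CPM per kilobase of exon on chromosome 1), *Ifi204* averaged 58.7 ± 17.8 with niclosamide and 41.1 ± 1.29 with vehicle (SD, n = 3 each). *Ifi205* followed at 38.9 ± 6.04 RPKM with niclosamide and 20.5 ± 1.43 with vehicle, and *Ifi203* at 28.2 ± 1.86 with niclosamide and 20.5 ± 6.43 with vehicle, so that these 2 had nearly the same vehicle mean. *Mnda* (23.5 ± 5.92 with niclosamide, 16.6 ± 2.79 with vehicle) and *Pyhin1* (22.2 ± 3.28 with niclosamide, 13.9 ± 3.03 with vehicle) were within each other's spread. *Aim2* was lower by this length, at 5.25 ± 1.29 RPKM with niclosamide and 3.47 ± 0.71 with vehicle. Its annotated exons come to 8946 bases in 19 blocks over 116.8 kb, and a shorter transcript would give a higher RPKM. *Ifi202b* averaged 9.49 ± 15.8 RPKM with niclosamide and 2.39 ± 2.16 with vehicle, and its place in the order is not fixed. By the same length *Ifi204* stood above 89.8% of the genes tested in vehicle lesions and *Aim2* above 37.2%.

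That order depends on which exon length is used. *Ifi202b*, *Ifi203*, *Ifi204* and *Ifi205* are annotated a second time or more on sequences other than the chromosomes, as are 3.72% of all symbols, and the length in the files adds these copies up. With that length *Mnda* came first, at 23.5 RPKM with niclosamide and 16.6 with vehicle, and *Ifi204* stood at 20.4 with niclosamide and 14.3 with vehicle. Whether the reads were aligned to those extra sequences is not stated, and the counter ran without the option that counts reads matching several places. Members also share sequence with other genes, some of them members. Of all 50-base stretches in GENCODE M21 coding transcripts, 72.8% of those of *Mnda* also occur in another gene, 49.6% of *Ifi205*, 35.1% of *Pyhin1*, 30.2% of *Ifi204*, 16.7% of *Ifi203*, 0.911% of *Aim2* and 0% of *Ifi202b*. *Ifi205* and *Mnda* share most with each other, and *Ifi204* shares most with *Mnda* (23.2%). *Pyhin1* shares most with Ifi214 (34.7%) and *Ifi203* with the pseudogene Ifi203-ps (11.97%), which are not members. How far this affected the counts was not measured, and the counts of *Mnda*, *Ifi205*, *Pyhin1*, *Ifi204* and *Ifi203* are to be taken as uncertain. No member shared exon bases with another gene on its strand. The GENCODE coding transcripts of *Aim2* held 2853 different 50-base stretches, against the 8946 exon bases used for its RPKM. Its low place in the order therefore depends on the annotation.

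Ratios within a library do not depend on library scaling. The ratio of *Ifi205* to *Ifi204* counts was 0.441, 0.386 and 0.527 in niclosamide 1 to 3, against 0.351, 0.332 and 0.305 in vehicle 1 to 3, so the groups were apart. Members were chosen with this contrast known, so nothing is read from that. The ratio of *Mnda* to *Ifi204* was 0.308, 0.275 and 0.305 with niclosamide, against 0.280, 0.340 and 0.263 with vehicle, and overlapped. For *Pyhin1* to *Aim2* the values were 1.477, 1.725 and 1.851 with niclosamide, against 1.469, 1.474 and 1.759 with vehicle, and overlapped too. The ratio of *Ifi203* to *Mndal*, another gene of the cluster, was 1.05, 1.26 and 1.122 with niclosamide, against 1.122, 1.13 and 1.09 with vehicle. By contrast the ratio of *Ifi203* to *Ifi204* was 1.41, 0.933 and 1.86 with niclosamide, against 0.915, 1.67 and 1.47 with vehicle. It was lowest in vehicle 1 and niclosamide 2, the libraries with the highest epithelial and mesothelial sums, and a link was not tested.

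The other family genes of the cluster had log2 fold changes between -0.08 and 0.46. Of 7 tested, 0 passed an adjusted p of 0.05, 0 had an unadjusted p under 0.05 (edgeR quasi-likelihood) and DESeq2 called 0. Their median log2 fold change was 0.24, 6 of 7 being above 0, and the groups overlapped in all 7. *Mndal*, whose stretch around the response element core matched that of *Ifi203*, averaged 165.7 ± 25.8 CPM with niclosamide and 122.5 ± 38.2 with vehicle (log2 fold change 0.44 ± 0.26, adjusted p = 0.849 by edgeR), and *BC094916* 2.31 ± 0.262 CPM with niclosamide and 1.68 ± 0.642 with vehicle (0.46 ± 0.38, adjusted p = 0.929 by edgeR). The pseudogene *Gm16340* was lowest, at -0.08 ± 0.41.

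**Figure D4:**
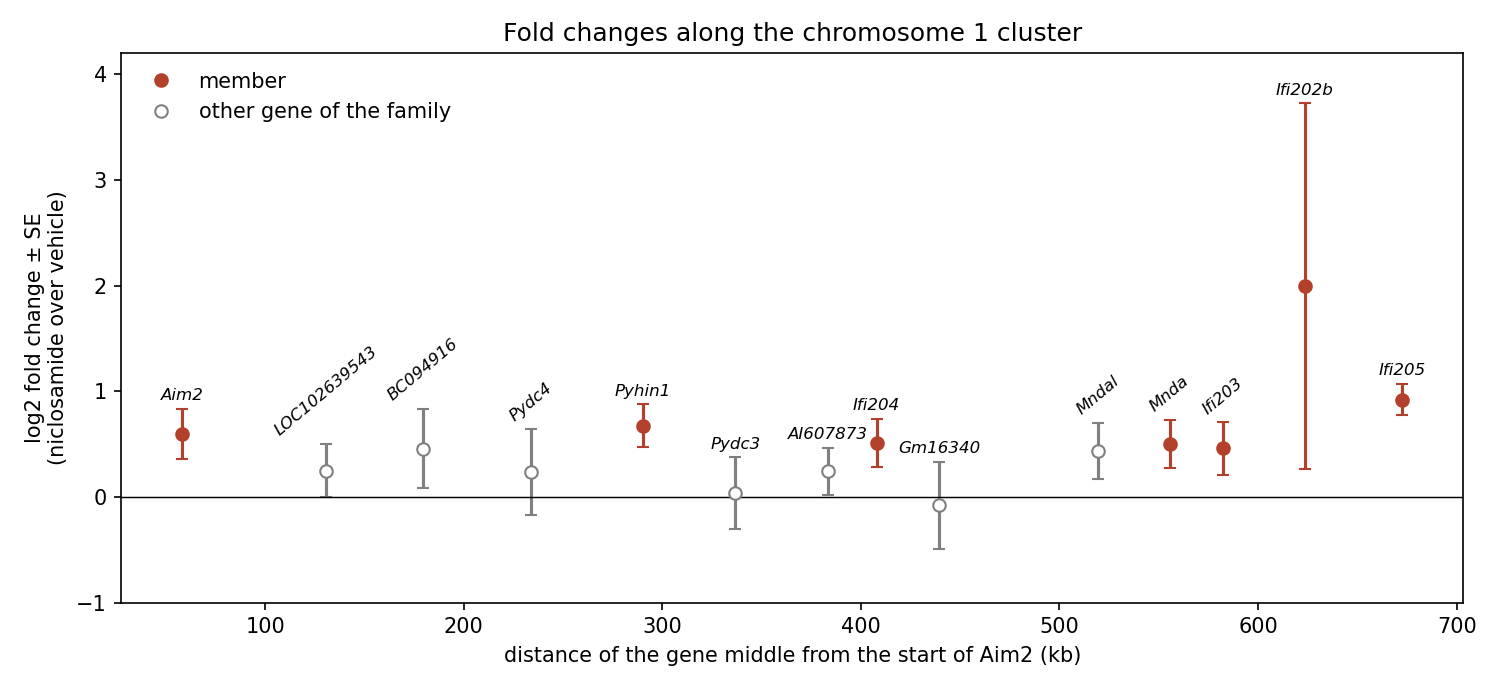
Log2 fold change (niclosamide over vehicle) with SE (n = 3 libraries per group) for the 7 members (filled) and 7 other family genes (open), placed by their distance from the start of *Aim2* in kb. Members lie between 0.46 and 1.99, with the widest error for *Ifi202b*, and the other genes between -0.08 and 0.46.

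Of inflammasome genes, 12 were tested. The list holds partners of AIM2, but also *Nlrp3*, *Nlrc4*, *Nlrp1b* and *Mefv*, genes of the sensors of other inflammasomes. By edgeR 0 passed the adjusted threshold, and 2 had an unadjusted p under 0.05. Both were higher with niclosamide, and DESeq2 called both. *Casp1*, the protease that AIM2 activates, averaged 99.9 ± 19.4 CPM with niclosamide and 56.8 ± 1.92 with vehicle (log2 fold change 0.81 ± 0.16, adjusted p = 0.521 by edgeR). Its substrate *Il18* averaged 11.99 ± 0.801 CPM with niclosamide and 7.53 ± 0.33 with vehicle (0.67 ± 0.17, adjusted p = 0.59 by edgeR), and the groups were apart in both genes. Over the 12 genes the log2 fold changes had their median at 0.46, and 10 were above 0, as were 53.7% of all genes. The other sensors entered that median with 0.79 for *Nlrc4*, 0.64 for *Nlrp1b*, 0.19 for *Mefv* and -0.03 for *Nlrp3*. *Il1b*, the other cytokine substrate, averaged 49.6 ± 18.2 CPM with niclosamide and 99.3 ± 46.9 with vehicle (adjusted p = 0.75 by edgeR). The adaptor gene *Pycard* (ASC) averaged 50.4 ± 12.7 CPM with niclosamide and 35.4 ± 6.25 with vehicle (adjusted p = 0.742 by edgeR), and both were named after their values were seen.

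Genes of cytosolic DNA sensing and STING, the pathway that p204 feeds into, centred on a log2 fold change of 0.12 (median). Of the 15 tested, 12 were above 0, as were 53.7% of all genes. By edgeR 0 of the 15 passed, 0 had an unadjusted p under 0.05, and DESeq2 called 0. The list also holds genes that restrain such responses, such as *Trex1*, and the endosomal sensor gene *Tlr9*. Its median is therefore no measure of pathway activity. *Samhd1*, a dNTP hydrolase that restrains innate responses to nucleic acids, averaged 485 ± 152 CPM with niclosamide and 316 ± 42.5 with vehicle (adjusted p = 0.749 by edgeR), and the kinase gene *Tbk1* 73.3 ± 12.2 CPM with niclosamide and 61.9 ± 3.89 with vehicle (adjusted p = 0.86 by edgeR). *Mb21d1* (cGAS) had 0.12 ± 0.20 and *Tmem173* (STING) 0.16 ± 0.29 as log2 fold changes, and these were named after their values were seen. *Ifnb1*, which the pathway induces, had at most 0.0309 CPM in any library, below the 0.0862 to 0.108 CPM that 3 counts represent.

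Interferon-induced genes were listed by the interferon best known to induce them. For interferon-gamma, all 18 log2 fold changes were above 0 and their median was 0.98, and 12 of the 18 had an unadjusted p under 0.05. By edgeR 0 passed after adjustment, and DESeq2 called 1, the chemokine gene *Cxcl9* (672 ± 211 CPM with niclosamide, 206 ± 19.1 with vehicle). *Gbp3*, of the guanylate-binding proteins, averaged 376 ± 99.0 CPM with niclosamide and 190.1 ± 52.3 with vehicle (adjusted p = 0.602 by edgeR). For type I interferon, 8 of 18 stimulated genes were above 0 and the median was -0.08. There, 0 passed by edgeR and DESeq2 called 0, and of the 2 with an unadjusted p under 0.05, *Herc6* was higher (78.8 ± 8.84 CPM with niclosamide, 51.6 ± 16.0 with vehicle, adjusted p = 0.685 by edgeR) and *Oas2* lower (57.3 ± 18.3 CPM with niclosamide, 90.1 ± 15.7 with vehicle, adjusted p = 0.714 by edgeR). The difference between these lists and the members was not tested.

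Among 16 interferon receptor and signalling genes, 0 passed by edgeR, 2 had an unadjusted p under 0.05, and DESeq2 called 1, *Ifng*. That gene of interferon-gamma itself had 18.4, 29.4 and 5.16 CPM in niclosamide 1 to 3, against 5.29, 4.42 and 2.14 CPM in vehicle 1 to 3, so niclosamide 3 was within the vehicle range. The list's median log2 fold change was 0.20, with 12 of 16 above 0.

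**Figure D5:**
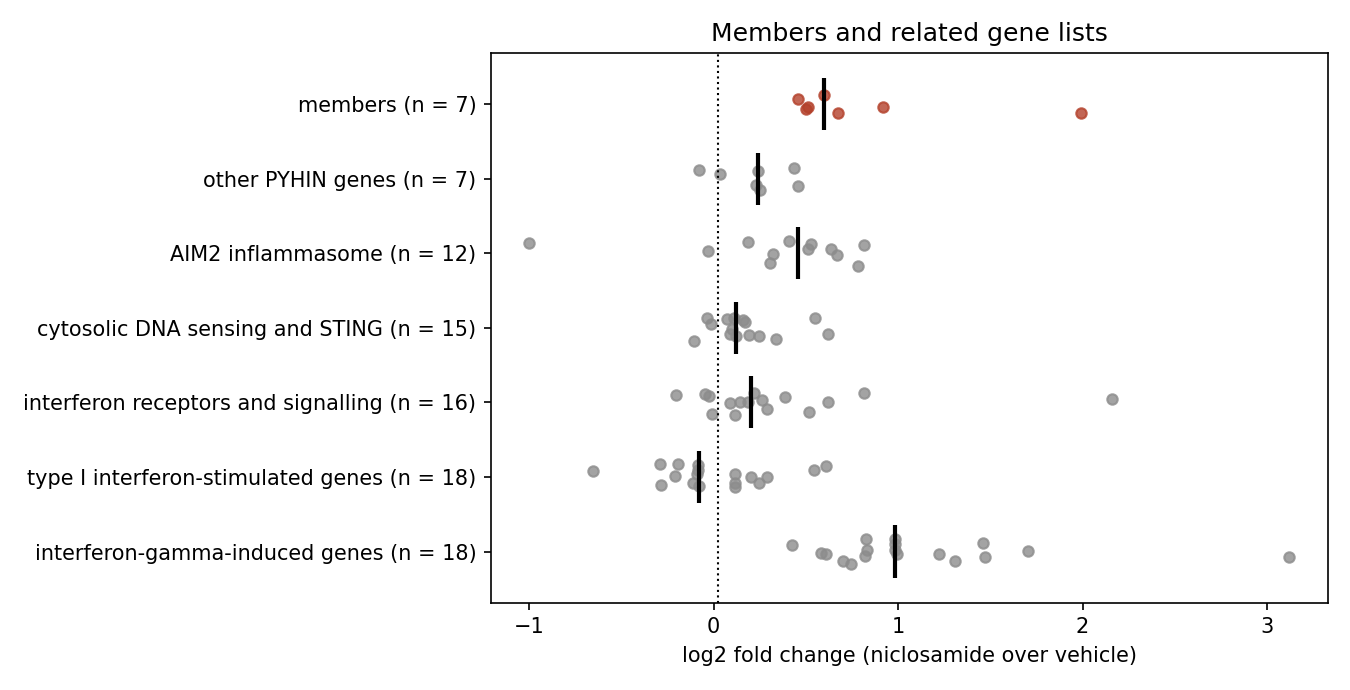
Log2 fold change (niclosamide over vehicle, x axis) of each tested gene in the member list and 6 related lists, with a bar at each list's median and a dotted line at the median of all genes tested. The medians run from -0.08 for type I interferon-stimulated genes to 0.98 for interferon-gamma-induced genes, with the members at 0.60.

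Summed marker levels were apart between the groups for T and NK cells, B and plasma cells, neutrophils and smooth muscle, and overlapped for macrophages and monocytes and for dendritic cells. The 14 T and NK cell markers, all with counts in all libraries, summed to 849.9, 884 and 625 CPM in niclosamide 1 to 3, against 438, 413 and 375 CPM in vehicle 1 to 3, without overlap. The 14 macrophage and monocyte markers summed to 9824, 7715 and 5033 CPM with niclosamide, against 6192, 3308 and 4367 CPM with vehicle, and overlapped, as did the 10 dendritic cell markers (395, 205 and 198 CPM with niclosamide, against 269, 185 and 210.2 CPM with vehicle). B and plasma cell markers, 9 of 10 found in the files, summed to 3861, 4270 and 2108 CPM with niclosamide, against 1652, 1238 and 1615 CPM with vehicle. The 10 neutrophil markers summed to 234, 365 and 361 CPM with niclosamide, against 837, 416 and 865 CPM with vehicle, apart with niclosamide lower. The 8 smooth muscle markers were apart in the same direction, at 2681, 1938 and 4789 CPM with niclosamide, against 8469, 5739 and 7621 CPM with vehicle. No marker of these lists was at 0 in any library, and their part in the members' values was not tested.

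Among 6 libraries, the genes whose log2 CPM ran most like a member's, after each gene was centred on its own mean, differed between members. Likeness was the root mean square difference over the 6 libraries. *Ifi205* was closest to *Tbx21* (0.07), *Atp8b4* (0.085) and *Il2rb* (0.0923), the last of which is also among the T and NK cell markers above. *Aim2* was closest to *Dennd1b* (0.0811), *Bcl11b* (0.101) and *Lnpep* (0.106), and *Pyhin1* to *Camk4* (0.0951), *Zfp429* (0.0979) and *Rp2h* (0.10). *Mnda* was closest to *Ptpn22* (0.0791), *Phf11b* (0.103) and *Hif1a* (0.106). *Ifi204* was closest to *Rab19* (0.0828), *Angpt2* (0.09) and *Amica1* (0.10), and *Ifi203* to *Mndal* (0.0802), *Klhl28* (0.0863) and *Ikzf2* (0.0966). *Ifi202b* had no close match: its nearest were *Rnf186* (0.889), *Sprr2a3* (1.01) and *Pla2g2e* (1.03). These are descriptions over 6 libraries that share a treatment contrast, and likeness takes in that contrast. *Ifi205* had a log2 fold change of 0.92, beside 0.90 for *Tbx21*, 0.92 for *Atp8b4* and 0.89 for *Il2rb*. Members were chosen with the contrast known, so nothing is read from the likeness.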

How the data were processed

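Per the file headers, the authors deposited whole-number read counts per gene symbol, made by featureCounts 1.4.6-p4 from STAR alignments, counting reverse-strand reads over all exons of a gene (GRCm38.p3). The header shows no option for reads matching several places or genes. The submitters' processing notes also name Trimmomatic 0.33 and STAR 2.4.2a; the read length is not given in the sources used here.

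From the counts, edgeR 4.0.16 in R 4.3.3 kept 17364 genes with filterByExpr (minimum count 10, minimum total 15), scaled by TMM and fitted a robust quasi-likelihood model with the group as its only term, with Benjamini-Hochberg adjustment over all genes and a threshold of 0.05. Each SE was derived from the fold change and its F statistic. CPM uses TMM-scaled library sizes. RPKM had been planned on the length given in the files; exon length on the chromosome was used instead, because that length adds up repeated annotations, and both are reported. The procedure was tested on simulated data.

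Members, gene lists and tests were chosen with earlier results of these data known. Text names all members, 3 most alike genes per member (mean log2 CPM of at least 1, without predicted genes and immunoglobulin or T cell receptor segments) and 2 genes per list with the smallest p; other genes were chosen after their values were seen. A gene that this rule names in the interferon signalling list is not reported here. *Gm15433*, listed at first, lies outside the cluster and was dropped. *Ifi206* was matched by gene ID. Alternatives were RLE and upper-quartile scaling, DESeq2 1.42.0 on the same genes, limma-voom 3.58.1, no filter, CPM of at least 1 in 3 libraries, a block on the replicate number, and dropping each library in turn. Motifs and shared stretches were found in RefSeq and GENCODE sequence with Python 3.11.15.

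The floor of 3 counts covers counting error only. P-values weigh the group difference against the spread between 3 libraries per group, which the fit moderates across genes. Vehicle 1, pooled over 4 mice, was counted like the libraries from 1 mouse, so in that group the spread is not only that between single mice.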

Additional observations from a re-analysis of the deposited data

How the results depend on the processing

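With all libraries edgeR called 0 of 17364 genes. Again 0 were called under RLE or upper-quartile scaling, by limma-voom, under the replicate block, under the stricter filter (15220 genes tested) and with any 1 library left out (17749 to 17853 tested); without a filter on low counts 1 of 29966 was called, and DESeq2 called 195 of 15939 with an adjusted p. The number with an unadjusted p under 0.05 was 1202, and 686 to 1917 with 1 library left out (686 without vehicle 3, 1809 without niclosamide 2, 1917 without niclosamide 3). DESeq2 called 2 inflammasome genes, 1 interferon signalling gene and 1 interferon-gamma-induced gene, where edgeR called 0 in each list. The cause was not tested. Replicate numbers are shared between the groups. Deviations of same-numbered libraries from their group means correlated across genes at -0.08, -0.09 and 0.27 for numbers 1 to 3. Between different numbers the correlations ran from -0.36 to 0.36. With 3 libraries per group these values cannot show whether the numbers mark pairs. With the replicate number as a block, 1141 genes had an unadjusted p under 0.05.

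Over 13 alternatives the log2 fold change stayed above 0 in 6 members: 0.79 to 1.04 for *Ifi205*, 0.50 to 0.81 for *Pyhin1*, 0.42 to 0.78 for *Aim2*, 0.31 to 0.70 for *Mnda*, 0.26 to 0.73 for *Ifi204* and 0.23 to 0.66 for *Ifi203*. For *Ifi202b* it ran from -2.60 to 3.04 and was below 0 in 3, namely without niclosamide 2, under the replicate block (-0.97) and by limma-voom (-0.35). DESeq2 gave no adjusted p for *Ifi202b*. Depth limits *Ifi202b* most, with 8 counts in niclosamide 3.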
